A study of Mus musculus with 18 samples.

Results

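The genes described here are the receptors through which macrophages sense extracellular nucleotides and adenosine: the ATP-gated channels P2rx4 and P2rx7, the nucleotide receptors P2ry2, P2ry6, P2ry12, P2ry13 and P2ry14, and the adenosine receptors Adora2a, Adora2b and Adora3. They were taken by symbol from the expression table, and all 10 were found among its 25926 genes. The values come from RNA-seq of bone marrow-derived macrophages (BMDMs) from C57BL/6 mice, grown for 7 days with M-CSF at 50 ng/mL and placed over renal tubular epithelial cells (TECs) on a Transwell membrane with 0.4 μm pores. Each of the 3 groups held 6 samples. NC stood for macrophages given PBS above untreated TECs, COM for macrophages given PBS above TECs exposed for 24 h to calcium oxalate monohydrate crystals at 100 μg/mL, and COM+Met for macrophages given 5 mM Met for 24 h above crystal-exposed TECs. The sample labels do not spell out Met. Whether the 6 samples per group are separate mice, cultures or wells is stated in none of the sources used here, and every p-value below therefore refers to sample-to-sample spread that could be technical only.

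Signalling through these receptors begins when ATP leaves stressed or damaged cells. P2X receptors are channels that open on ATP binding, and P2Y receptors couple to G proteins and answer to ATP, ADP, UTP, UDP or UDP-sugars. Enzymes on the cell surface strip the phosphates from ATP until adenosine is left, and adenosine acts on receptors that raise cAMP (A2a and A2b) or lower it (A1 and A3). In macrophages, P2X7 is known for triggering the NLRP3 inflammasome, and A2a for damping the release of inflammatory cytokines.

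Values are FPKM, fragments scaled to gene length and to the total of each sample, and read depth is unknown. Of the libraries, the last NC pair (NC-5, NC-6) had r = 0.993 over genes within the pair and 0.938 to 0.962 against the first 4 NC samples, COM-1 to COM-3 correlated with COM-4 and COM-5 at 0.948 to 0.951, and COM-6 with the other COM samples at 0.888 to 0.935, whereas the COM+Met samples ranged from 0.989 to 0.995. Several receptor results that rest on these libraries are given with and without them, and so are several results of other genes. Of 8 macrophage markers, among them Adgre1 and Csf1r, each averaged 1 FPKM or more in every group. In NC, 6 of 9 neutrophil markers did so too, so this minimum cannot show identity. Levels of the macrophage markers also differed between groups. Adgre1 averaged 112 FPKM in NC, 577 in COM and 586 in COM+Met, and Csf1r 279, 365 and 242. RNA was bulk, so that fewer cells of a type and less RNA per cell cannot be told apart.

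Most of these genes lie in pairs or clusters. On chromosome 3 (GENCODE M21 on GRCm38, matched by Ensembl identifier), P2ry14 (59113855 to 59153618), P2ry13 (59207892 to 59210882) and P2ry12 (59216272 to 59262871) follow each other on the minus strand with gaps of 54274 and 5390 bp. They lie within the span of Med12l on the opposite strand, which shares 9 exonic bases with P2ry12 and 0 with the others, and whose mean was 0.350 FPKM in NC, 0.353 in COM and 0.101 in COM+Met. Whether reads were counted by strand is not given in the sources used here, and reads of overlapping genes can then not be told apart. P2rx7 and P2rx4 are neighbours on the plus strand of chromosome 5, 16112 bp apart, and P2ry6 and P2ry2 on the minus strand of chromosome 7, 21919 bp apart. Adora3, also on chromosome 3, shares 779 exonic bases with Tmigd3 on the same strand, which was at 0.0982 to 0.209 FPKM in the group means. Adora2a lies on chromosome 10 (75316877 to 75334784) and Adora2b on chromosome 11 (62248984 to 62266453), both on the plus strand.

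The promoters of the chromosome 3 cluster are printed because its 3 genes were the members that passed the test as lower in COM+Met against COM, where Adora3 was not tested. They come from RefSeq (GRCm38.p6), minus strand, written 5′ to 3′. For P2ry12 and P2ry13 they are the bases directly upstream of an annotated RefSeq start, and for P2ry14 only the part of such a window that lies upstream of the gene's end in GENCODE, without the rest of the window down to the RefSeq start. The capitals mark letters that match a searched motif: the core of the hypoxia response element (ACGTG) and the kappa B motif (GGG, any 3 bases, TTCC) in P2ry12, the PU.1 core (GAGGAA) in P2ry13 and the AP-1 motif (TGANTCA) in P2ry14, on either strand.
P2ry12, chr3:59262986-59263235: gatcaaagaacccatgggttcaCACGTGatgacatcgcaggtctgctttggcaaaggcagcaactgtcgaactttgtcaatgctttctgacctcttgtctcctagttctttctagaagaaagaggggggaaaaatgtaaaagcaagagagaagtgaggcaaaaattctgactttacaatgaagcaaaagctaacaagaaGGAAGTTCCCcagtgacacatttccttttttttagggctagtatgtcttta
P2ry13, chr3:59210883-59211132: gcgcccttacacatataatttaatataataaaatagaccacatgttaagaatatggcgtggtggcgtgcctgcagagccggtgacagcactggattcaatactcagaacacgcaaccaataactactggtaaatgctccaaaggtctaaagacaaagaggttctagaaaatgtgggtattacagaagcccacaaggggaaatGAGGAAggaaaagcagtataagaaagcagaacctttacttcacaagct
P2ry14, chr3:59153619-59153742: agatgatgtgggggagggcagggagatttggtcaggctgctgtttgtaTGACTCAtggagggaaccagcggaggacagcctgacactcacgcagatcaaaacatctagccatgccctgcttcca
The first capitals of P2ry12 hold the hypoxia core on both strands, and the second hold the kappa B motif on the minus strand. The part of the P2ry14 window that is not printed holds a PU.1 core as well. Of all 32851 promoter windows in the table, the hypoxia core was in 19.6%, kappa B in 5.56%, the PU.1 core in 28.3% and AP-1 in 7.81%. Also searched were the ISRE core (GAAA, any 2 bases, GAAA; 3.44% of windows), GAS (TTCNNNGAA, 8.30%) and CRE (TGACGTCA, 1.79%), which matched in none of the windows of the 8 members that the table holds. Elsewhere among the members, AP-1 also matched in windows of Adora3 and P2rx7, the hypoxia core in those of P2ry2, and the PU.1 core in those of Adora3 and P2rx7. A match is a run of letters and not a measured site.

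P2rx4 was the most abundant receptor transcript in every group, and the order of the others changed with the condition. Mean FPKM in NC ran from P2rx4 (78.9 ± 22.9, SD, n = 6) through P2ry14 (40.5 ± 9.12), P2ry6 (24.7 ± 4.19), P2ry13 (21.7 ± 8.76), P2rx7 (13.6 ± 1.97), P2ry2 (12.2 ± 1.20) and Adora2b (11.2 ± 3.81) to Adora2a (4.0 ± 2.86), P2ry12 (2.35 ± 1.25) and Adora3 (2.25 ± 0.740). Of neighbours in that order, only Adora2b and Adora2a had ranges over the samples that did not overlap. In COM, Adora2a (32.0 ± 7.62) stood beside P2ry6 (32.8 ± 4.29) and P2ry13 (29.4 ± 5.73), with overlapping ranges, below P2rx4 (101 ± 15.1) and P2ry14 (82.6 ± 23.0). Adora2a was the third most abundant receptor in COM+Met at 39.7 ± 2.67, with its range apart from P2ry14 above (56.5 ± 2.31) and P2ry6 below (25.3 ± 3.56). P2ry12 and Adora3 were at the bottom in each group.

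**Figure D1:**
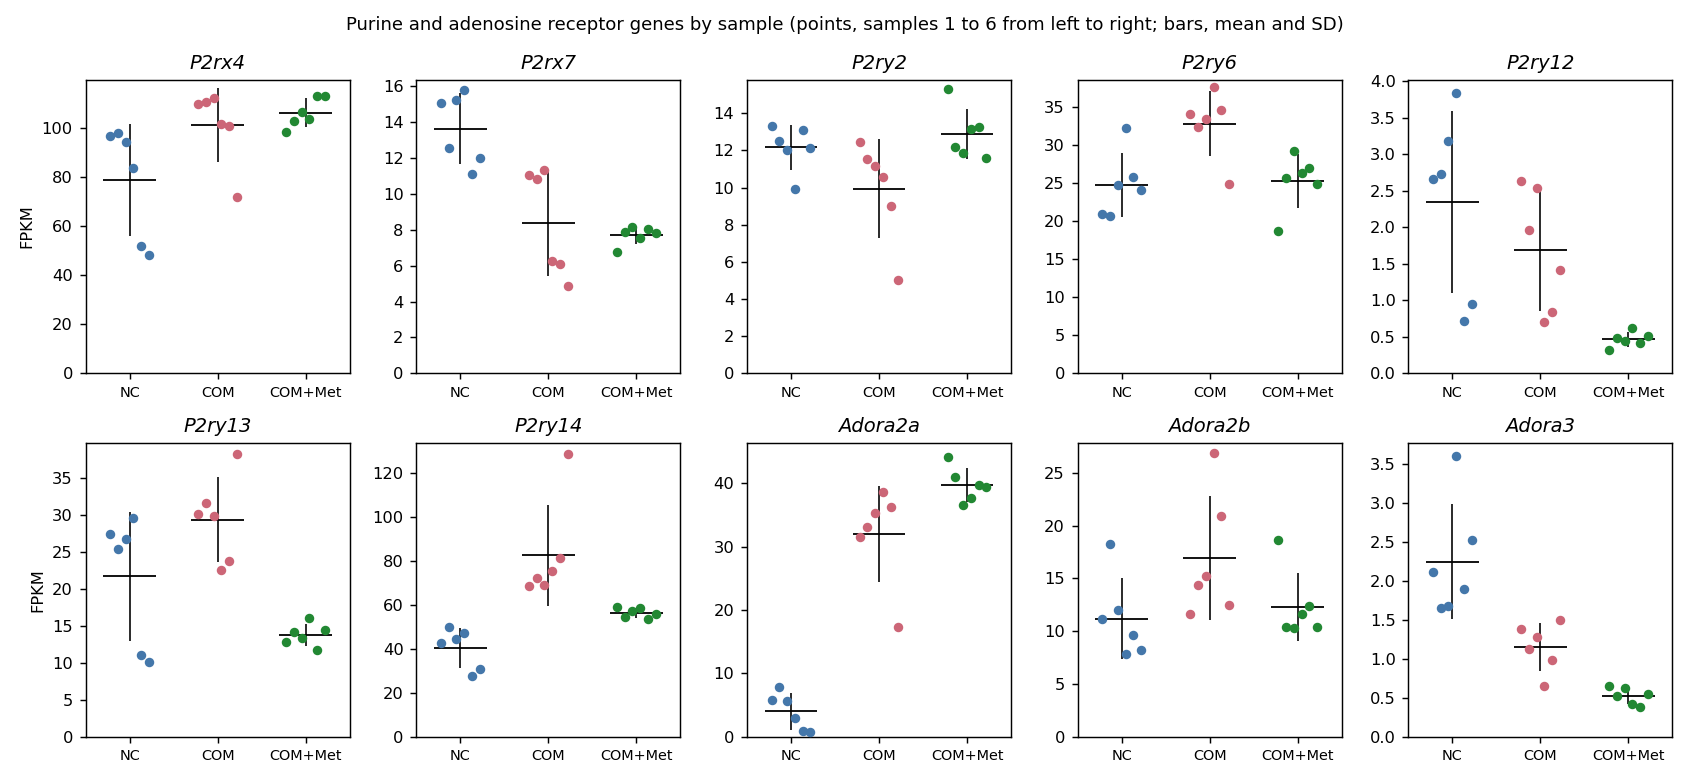
FPKM of the 10 receptor genes in each sample (points, samples 1 to 6 of each group from left to right), with the group mean (horizontal bar) and SD (vertical bar) on linear axes that start at 0. Adora2a rises from at most 7.79 in NC to at least 17.3 in COM, P2ry12 and P2ry13 are lower in all 6 COM+Met samples than in any COM sample, and in P2rx7 the COM samples form a higher and a lower trio.

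COM was compared with NC to ask how receptor expression differed in macrophages above crystal-exposed TECs. Among the adenosine receptors, Adora2a rose about 8.01-fold in mean FPKM and Adora3 fell to 0.513 of its NC mean. P2ry14, the receptor for UDP-glucose and related sugars, rose to 2.04 times its NC mean, P2ry6, a UDP receptor, to 1.33 times, and P2rx7 fell to 0.616. The other 5 receptors did not pass the test. The test was limma on log2(FPKM + 1), run on the 10900 genes that averaged 1 FPKM or more and adjusted over all of them by Benjamini-Hochberg; a call required both an adjusted p under 0.05 and a difference of 2-fold or more. Fold changes on this scale understate those of low genes.

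Of the 10 receptors, all above that minimum, 3 had a higher level at an adjusted p below 0.05 (against 12.7% of all genes tested), 2 a lower level (40.6%), and 2 were called (17.7% in either direction). For 3 of them, Adora2a, P2ry14 and Adora3, the groups did not overlap (38.2% of genes). The median log2 difference was 0.40 over the receptors and -0.27 over all genes tested, so that a gene at the median of all genes is itself lower in COM on this scale. Of all calls 33.9% were higher, and with size factors 51.9%.

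Adora2a, the A2a receptor, was measured at 5.87, 7.79, 5.60, 2.94, 0.956 and 0.820 FPKM in NC samples 1 to 6. In COM its values were 31.5, 33.0, 35.3, 38.6, 36.3 and 17.3. All COM values lay above all NC values, with NC-5 and NC-6 the lowest of NC and COM-6 the lowest of COM. The difference was 2.93 on the log2 scale (SE 0.38, adjusted p = 5.29e-05, limma), and its exact two-sided permutation p was 0.00216, the smallest that 6 against 6 samples can give. Without NC-5 and NC-6 it was 2.35 (adjusted p = 4.08e-05), and over 26 alternative settings it stayed between 2.07 and 3.36. Against the median of all genes the rise was 3.20.

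Adora2b, the lower-affinity A2b receptor, showed 11.1, 18.2, 12, 7.89, 9.63 and 8.21 FPKM in NC and 11.6, 14.3, 15.2, 26.8, 20.9 and 12.5 in COM. These values overlapped, and the log2 difference of 0.55 (SE 0.22) missed the threshold with an adjusted p of 0.0552. It passed with median-of-ratios size factors, another scaling of the samples to each other (0.85, adjusted p = 0.0140) and with quantile normalisation (0.77, adjusted p = 0.0172). Without COM-1 to COM-3 it passed as well (0.78, adjusted p = 0.0332). It did not pass without COM-4 to COM-6 (0.32, adjusted p = 0.26) or without NC-5 and NC-6 (0.42, adjusted p = 0.206). Adora3, the A3 receptor, which couples to inhibitory G proteins, stood at 2.12, 1.66, 1.68, 3.60, 1.90 and 2.53 FPKM in NC and at 1.38, 1.13, 1.29, 0.651, 0.979 and 1.5 in COM. Its highest COM value lay just under its lowest NC value. The fall of 0.58 on the log2 scale (adjusted p = 0.00628) did not pass with size factors (-0.38, adjusted p = 0.0547) or quantile normalisation (-0.25, adjusted p = 0.205). Summed mast cell and basophil markers were also lower in COM, at 11.6 to 21.3 FPKM in NC and 0.743 to 3.94 in COM, with 2 of 8 markers averaging 1 FPKM or more in NC and 1 in COM, and 2 and 5 of them listed at 0 throughout. Mean Cpa3 (10.6 FPKM in NC, 0.302 in COM) and Mcpt8 (4.87, 0.206) fell, whereas Kit, the 1 in COM, was higher there (0.875, 1.85). Within COM, Adora3 was highest in COM-6, where the sum was 1.71. The part of these cells in the Adora3 result was not tested.

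The ATP-gated channels differed from each other. P2rx7, the channel that needs high ATP, had 15, 12.5, 15.2, 15.8, 11.1 and 12 FPKM in NC and 11.0, 10.8, 11.3, 6.23, 6.09 and 4.89 in COM. COM-1 to COM-3 reached the low end of NC, and COM-4 to COM-6 lay well beneath it. The fall of 0.69 (SE 0.20, adjusted p = 0.00984) became 0.27 without COM-4 to COM-6 (adjusted p = 0.0671) and 1.11 without COM-1 to COM-3 (adjusted p = 9.41e-05). P2rx4, a channel sensitive to low ATP, gave 96.7, 98.2, 94.5, 83.9, 52.1 and 48.2 FPKM in NC and 110, 111, 112, 102, 101 and 72.0 in COM. Its difference of 0.40 (SE 0.20, adjusted p = 0.111) was 0.10 without NC-5 and NC-6, its 2 lowest values, and with size factors it was 0.71 (adjusted p = 0.00683).

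Of the P2Y genes, P2ry14 and P2ry6 rose. P2ry14 was at 42.8, 50.2, 44.5, 47.1, 27.7 and 30.7 FPKM in NC and at 68.7, 72.2, 69.0, 75.5, 81.5 and 129 in COM, with the groups apart and COM-6 far above the rest. The rise was 1.01 (SE 0.19, adjusted p = 0.00071; exact permutation p = 0.00216). It kept its adjusted p but missed 2-fold without NC-5 (0.91), without NC-6 (0.94) and without COM-6 (0.87), and was 0.66 without all 3 of them (adjusted p = 9.72e-05). P2ry6 had 20.9, 20.6, 24.7, 32.1, 25.7 and 24.1 FPKM in NC and 34.1, 32.3, 33.4, 37.6, 34.6 and 24.8 in COM. In all COM samples but COM-6 it exceeded every NC value, for a rise of 0.40 (SE 0.13, adjusted p = 0.018), which was 0.37 without COM-1 to COM-3 (adjusted p = 0.0819).

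P2ry2, a receptor for ATP and UTP, spanned 9.94 to 13.3 FPKM in the NC samples against 5.02 to 12.4 in the COM samples (log2 difference -0.31, adjusted p = 0.151). Its difference was -0.57 without COM-1 to COM-3, which passed (adjusted p = 0.0251), and -0.05 without COM-4 to COM-6 (adjusted p = 0.673). P2ry12 and P2ry13 both bind ADP and couple to inhibitory G proteins. P2ry13 had 27.4, 25.5, 26.8, 29.5, 11.0 and 10.1 FPKM in NC and 30.1, 31.6, 29.9, 22.5, 23.8 and 38.3 in COM. The low values were those of NC-5 and NC-6, and the difference of 0.51 (adjusted p = 0.123) was 0.08 without them, while with size factors it was 0.82 (adjusted p = 0.0272). P2ry12 was at 2.66, 2.72, 3.18, 3.84, 0.712 and 0.948 FPKM in NC and at 2.63, 1.96, 2.54, 0.702, 0.846 and 1.41 in COM. Each group held low and high samples, and the difference of -0.28 (adjusted p = 0.426) was -0.67 without NC-5 and NC-6 (adjusted p = 0.0357), 0.11 without COM-4 to COM-6 and 0.0090 with quantile normalisation.

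**Figure D2:**
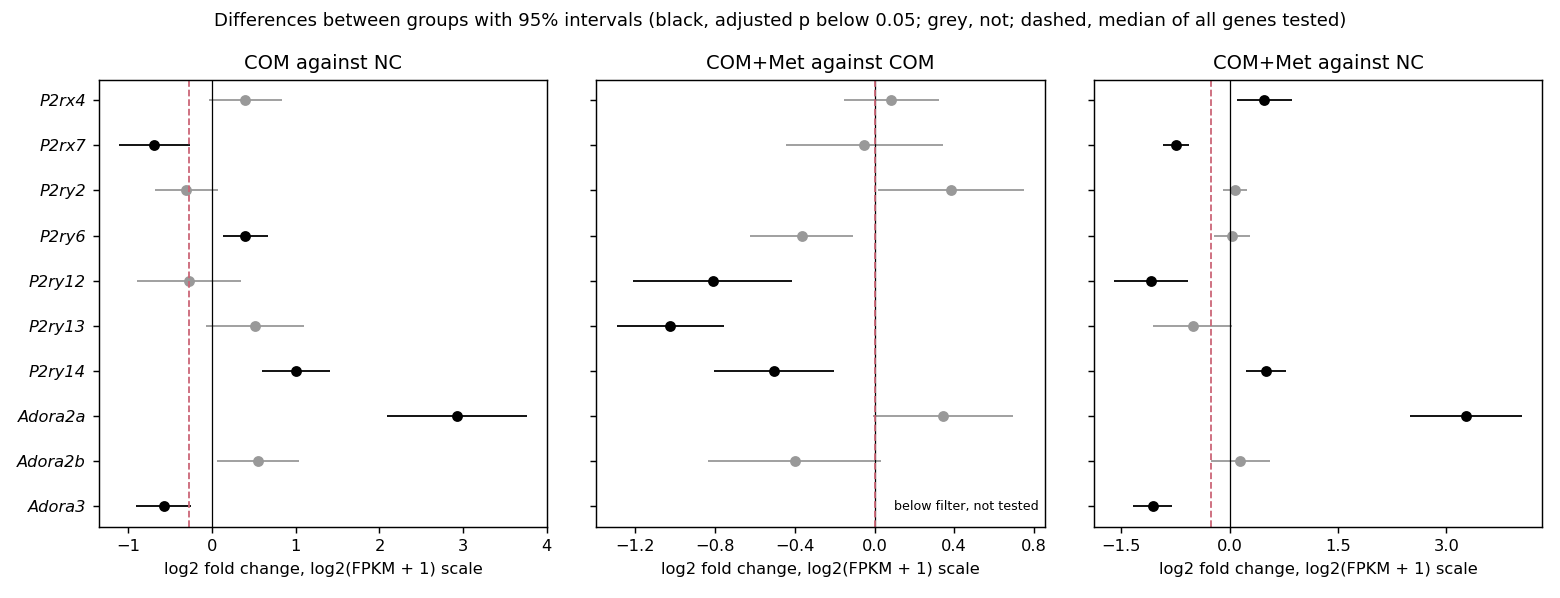
Log2 differences of the 10 receptor genes between groups on the log2(FPKM + 1) scale (x axis), with 95% intervals from limma, for COM against NC, COM+Met against COM and COM+Met against NC. Black marks an adjusted p below 0.05, grey marks the rest, and the dashed line is the median over all genes tested. Adora2a at 2.93 in COM and 3.27 in COM+Met against NC stands apart from the other receptors, and P2ry13 at -1.02 is the lowest in COM+Met against COM.

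COM+Met was compared with COM to ask what Met changed in macrophages above crystal-exposed TECs. The 3 receptors of the chromosome 3 cluster fell: P2ry13 to 0.469, P2ry12 to 0.278 and P2ry14 to 0.684 of their COM means. Adora2a, Adora2b, P2rx4, P2rx7, P2ry2 and P2ry6 did not pass the test. Adora3, at 0.453 of its COM mean, was below the minimum of 1 FPKM over these 12 samples and was not among the 10364 genes tested. This comparison shares the COM samples with the previous one, so that a high or low COM value moves both in opposite directions.

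Among the 9 receptors tested, 0 had a higher level at an adjusted p below 0.05 (5.77% of genes tested) and 3 a lower level (7.58%), with 1 called (2.22% of genes in either direction). At an unadjusted limma p below 0.05, P2ry2 was higher and P2ry6 lower as well. The exact permutation test gave p = 0.0152 for P2ry2, 0.0108 for P2ry6 and 0.00866 for Adora2a, which was higher. The 3 receptors that fell were also those of the 9 tested whose groups did not overlap (11.2% of genes). The median log2 difference was -0.36 over the 9 receptors and 0.00333 over all genes.

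P2ry13 had 12.9, 14.1, 13.4, 16.0, 11.8 and 14.4 FPKM in COM+Met, all under the lowest COM value of 22.5. The fall was 1.02 on the log2 scale (SE 0.12, adjusted p = 0.000311; exact permutation p = 0.00216), with an adjusted p of at most 0.00715 over 24 alternative settings. It came just under 2-fold without COM-2 (-1.0), COM-6 (-0.95) or COM+Met-5 (-0.98), and was -1.10 without COM-4 to COM-6 and -0.95 without COM-1 to COM-3. Whichever trio of COM samples was kept, the difference was close to 2-fold.

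P2ry12, the ADP receptor best known from platelets and microglia, was at 0.326, 0.485, 0.440, 0.624, 0.419 and 0.514 FPKM in COM+Met. Even the highest of these lay under the lowest COM value of 0.702. The fall was 0.81 (SE 0.18, adjusted p = 0.0123), and 1.20 without COM-4 to COM-6 (adjusted p = 9.99e-07), whereas without COM-1 to COM-3 the gene was below 1 FPKM and was not tested. P2ry14 showed 59.1, 54.5, 57.1, 58.8, 53.4 and 55.8 FPKM in COM+Met, between the NC and COM ranges and overlapping neither. Its fall of 0.50 (SE 0.14, adjusted p = 0.0296; exact permutation p = 0.00216) did not pass with size factors (adjusted p = 0.098), with quantile normalisation (0.0624), or when any of the samples COM+Met-2 to COM+Met-6 was left out (adjusted p = 0.0557 to 0.0676). It was -0.31 without COM-4 to COM-6 and -0.70 without COM-1 to COM-3, passing in both.

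Summed markers of other cell types differed between the samples, and some of them followed P2ry12 in part. The 6 megakaryocyte and platelet markers summed to 9.76 to 14.1 FPKM in the first 4 NC samples, 3.33 (NC-5) and 3.37 (NC-6) in the other NC samples, 5.46 to 9.07 in COM-1 to COM-3, 0.267 to 0.879 in COM-4 to COM-6 and 0.380 to 0.908 in COM+Met. Among them Ppbp carried most of the sum, with a mean of 6.37 FPKM in NC, 3.52 in COM and 0.112 in COM+Met, while the platelet glycoprotein Gp9 averaged 0.0338 FPKM in NC, was listed at 0 in all COM samples and averaged 0.0135 in COM+Met. The 6 dendritic cell markers summed to 5.55 to 8.18 FPKM in the first 4 NC samples, 1.96 (NC-5) and 1.69 (NC-6) in the other NC samples, 10.1 to 10.9 in COM-1 to COM-3, 2.41 to 3.35 in COM-4 to COM-6 and 1.83 to 2.86 in COM+Met. This sum was higher in COM-1 to COM-3 than in the first 4 NC samples, whereas P2ry12 was lower. Of the megakaryocyte and platelet markers, 2 averaged 1 FPKM or more in NC, 1 in COM and 0 in COM+Met, and of the dendritic cell markers 1, 3 and 0. P2ry12 was high or low in the same trios of COM samples as these sums, and their part in its result was not tested. P2ry13 was highest in COM-6 (38.3 FPKM), where the megakaryocyte and platelet sum was lowest (0.267). The 9 neutrophil markers summed to 395 to 596 FPKM in NC, 307 to 330 in COM-1 to COM-3, 34.2 to 67.5 in COM-4 to COM-6 and 19.4 to 45.4 in COM+Met, with 6, 4 and 3 of them averaging 1 FPKM or more in NC, COM and COM+Met. In NC-5 and NC-6, where P2ry12 was low, the neutrophil sum was 433 and 458. P2rx7 in COM was high and low in the same trios as these markers. The 7 stromal markers summed to 15.3 to 63.9 FPKM in NC, 5.39 to 37.1 in COM and 3.39 to 8.14 in COM+Met (6, 5 and 2 at 1 FPKM or more), and the 9 tubular epithelial markers to 10.9 to 18.2, 0.468 to 1.35 and 0.0435 to 0.324 (1, 0 and 0). Cdh1 carried most of the tubular sum, with a mean of 12.9 FPKM in NC, 0.555 in COM and 0.0693 in COM+Met, while Umod and Krt18 were listed at 0 in all samples. The part of these cells in the receptor results was not tested.

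**Figure D3:**
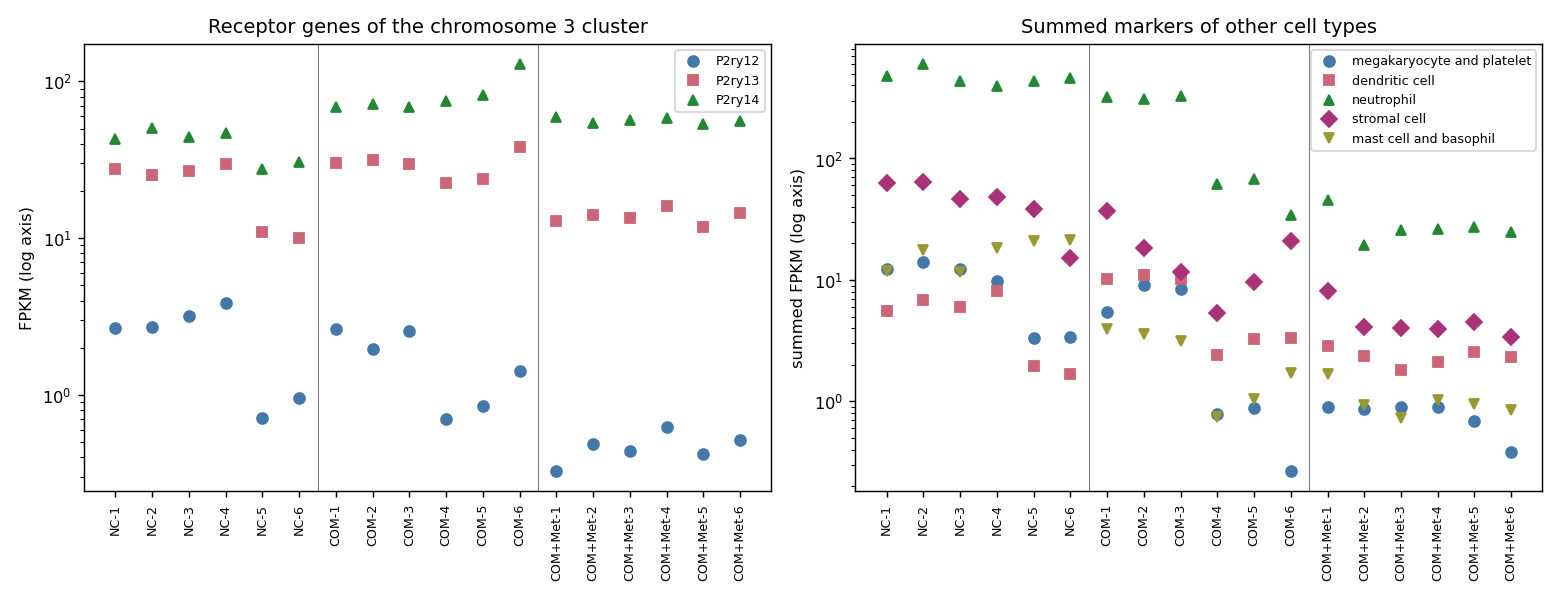
FPKM on a log axis in each of the 18 samples for P2ry12, P2ry13 and P2ry14 (left), and summed FPKM of marker lists of other cell types (right), with grey lines between groups. P2ry12 and the megakaryocyte and platelet sum are both low in NC-5, NC-6, COM-4 to COM-6 and COM+Met, whereas P2ry14 is highest in COM-6 at 129 FPKM.

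Of the receptors that did not pass in COM+Met against COM, Adora2a had 4 of 6 samples above every COM value, with 44.2, 40.9, 36.5, 37.7, 39.7 and 39.3 FPKM (log2 difference 0.34, 95% interval -0.01 to 0.69, adjusted p = 0.183). Without COM-4 to COM-6 the Adora2a difference was 0.25 and passed (adjusted p = 0.00396), and without COM-1 to COM-3 it was 0.44 (adjusted p = 0.153). P2rx4, with 98.5 to 113 FPKM, differed by 0.08 (-0.15 to 0.32), and P2rx7, with 6.74 to 8.15 FPKM, by -0.05 (-0.45 to 0.34). For P2rx7 the COM+Met values lay between the COM trios, so that the difference was -0.47 against COM-1 to COM-3 (adjusted p = 2.91e-05) and 0.37 against COM-4 to COM-6 (adjusted p = 0.0184). P2ry6 had 18.7 to 29.2 FPKM (-0.36, adjusted p = 0.061), beside 20.6 to 32.1 FPKM in NC, with its lowest COM+Met value under every NC value. It passed with TPM (adjusted p = 0.0233), all 18 samples in the fit (0.0474) and sample weights (0.001). The P2ry6 difference also passed without COM-4 to COM-6 (-0.39, adjusted p = 0.00797), but not without COM-1 to COM-3 (-0.33, adjusted p = 0.143). P2ry2 had 11.6 to 15.3 FPKM (0.38, adjusted p = 0.157), and passed with size factors (adjusted p = 0.0448) and quantile normalisation (0.0386). Without COM-1 to COM-3 it passed as well (0.64, adjusted p = 0.0324), and without COM-4 to COM-6 it was 0.12 (adjusted p = 0.19). Adora2b, at 18.6, 10.4, 10.3, 11.6, 12.4 and 10.4 FPKM, differed by -0.40 (adjusted p = 0.211). Adora3 had 0.649, 0.526, 0.621, 0.418, 0.378 and 0.544 FPKM, all under the lowest COM value of 0.651 and the highest only just, with an exact two-sided permutation p of 0.00216. Its log2 difference in the limma fit was -0.49 when genes below 1 FPKM were kept (adjusted p = 0.0104) and -0.75 with TPM (adjusted p = 0.00888). Its summed mast cell and basophil markers were at 0.731 to 1.67 FPKM in COM+Met, with 0 of 8 averaging 1 FPKM or more.

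COM+Met was also set against NC, the pair of groups that differed in both crystals and Met. Adora2a rose by 3.27 on the log2 scale (SE 0.36, adjusted p = 2.68e-06), and P2ry14 (0.50, adjusted p = 0.00346) and P2rx4 (0.48, adjusted p = 0.023) rose less. Adora3 fell by 1.07 (adjusted p = 5.83e-06), P2ry12 by 1.09 (adjusted p = 0.000928) and P2rx7 by 0.74 (adjusted p = 3.79e-06). Thus 3 of 10 receptors were higher (19.3% of 10786 genes) and 3 lower (55.9%) at an adjusted p below 0.05, and 3, namely Adora2a, Adora3 and P2ry12, were called (19.3%). The groups did not overlap for these 6 (57.6% of genes). Without NC-4, Adora3 and P2ry12 were both at -0.96 and just missed 2-fold.

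P2ry13, which did not pass in this comparison (-0.51, adjusted p = 0.0829), was lower by 0.94 without NC-5 and NC-6 (adjusted p = 1.01e-07), since only those NC samples were as low as COM+Met. The P2rx4 rise was 0.19 without them (adjusted p = 0.00773) and the P2ry14 rise 0.29 (adjusted p = 0.000182). P2ry2 (0.08), P2ry6 (0.03) and Adora2b (0.15) did not pass. With size factors P2ry2 was at 0.37 (adjusted p = 0.00093) and P2ry6 at 0.34 (adjusted p = 0.0195).

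Ratios within a sample do not depend on the scaling of that sample. They were formed after the values had been seen and are given with no test. Adora2a was below Adora2b in every NC sample, with ratios of 0.0993 to 0.527 (median 0.400), and above it in every other sample, with 1.38 to 2.71 in COM (median 2.02) and 2.37 to 3.92 in COM+Met (median 3.39). By this measure, in FPKM, the more abundant of the cAMP-raising adenosine receptors was Adora2b in NC and Adora2a in COM and COM+Met. P2rx4 exceeded P2rx7 by 4.02 to 7.83 times in NC, 9.93 to 16.6 times in COM and 13.1 to 14.6 times in COM+Met. P2ry14 exceeded P2ry13 by 1.56 to 3.05 times in NC, 2.28 to 3.42 times in COM and 3.67 to 4.59 times in COM+Met, where no value overlapped the other groups.

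**Figure D4:**
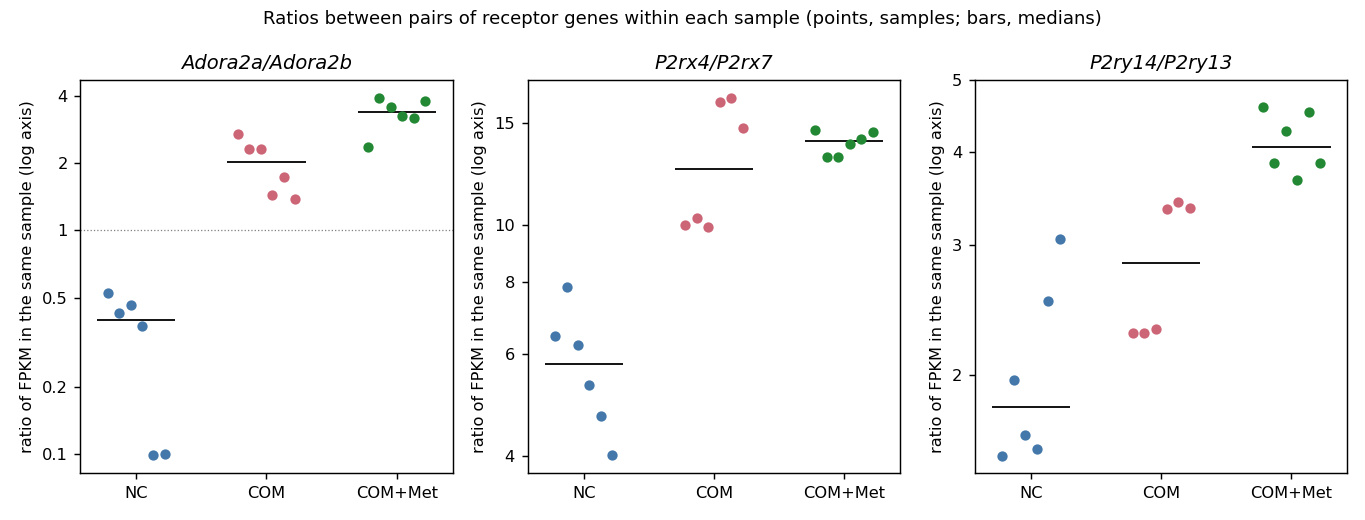
Ratio of FPKM between pairs of receptor genes within each sample (points; log axes), with the group medians as bars. Adora2a/Adora2b is below 1 (dotted line) in all NC samples and above 1 in all others, and P2ry14/P2ry13 is highest in COM+Met with a median of 4.07.

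The remaining receptors of the family were scarce, apart from P2ry1 and P2rx5. P2ry1, another ADP receptor, fell in COM against NC (from 4.22 to 7.39 FPKM in NC to 0.802 to 1.67 in COM; log2 difference -1.49, adjusted p = 3.53e-06) and differed by 0.07 in COM+Met against COM. P2rx5 had 18.8 to 20.8 FPKM in the first 4 NC samples, then 4.10 (NC-5) and 2.93 (NC-6), and its difference of -0.87 in COM did not pass (adjusted p = 0.179). It was -1.61 without NC-5 and NC-6 (adjusted p = 0.00659) and -0.09 without COM-4 to COM-6 (adjusted p = 0.910). It passed in COM+Met against NC (-1.35, adjusted p = 0.012). Against COM, COM+Met differed by -1.26 without COM-4 to COM-6 (adjusted p = 1.07e-07) and by 0.29 without COM-1 to COM-3 (adjusted p = 0.0489). Adora1, the A1 receptor, was listed at 0 in all 18 samples.

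Among the genes listed as ectonucleotidases or for nucleoside uptake and adenosine clearance, Entpd1, Nt5e, Enpp1, Adk and Slc29a1 fell in COM against NC. Cd38, Acpp, Pnp, Pnp2 and Slc28a2 rose, and not all of the listed genes act on a ligand of these receptors. Of 7 ectonucleotidases tested in COM against NC, 3 rose (12.7% of all genes), 3 fell (40.6%) and 1 did not pass, with a list median of -0.27 on the log2 scale beside -0.27 over all genes. Entpd1 (CD39), which turns ATP into AMP, went from 13.8 to 24.3 FPKM in NC to 4.15 to 9.60 in COM, a fall of 1.31 (adjusted p = 0.000137), and Nt5e (CD73), which turns AMP into adenosine, from 3.76 to 5.88 to 1.30 to 4.53 FPKM, a fall of 0.77 (adjusted p = 0.00969). The Nt5e difference was -0.29 without COM-4 to COM-6 (adjusted p = 0.0756) and -1.26 without COM-1 to COM-3 (adjusted p = 3.64e-05). Enpp1, an enzyme that cleaves ATP to AMP and pyrophosphate, fell by 1.73 (adjusted p = 1.56e-06). Cd38, an NAD glycohydrolase counted in this list, rose by 4.32 (adjusted p = 1.26e-06), from 2.13 to 13 FPKM in NC to 105 to 196 in COM. Acpp, an acid phosphatase that can release adenosine from AMP, rose by 1.70 (adjusted p = 0.0224), with 360 to 385 FPKM in COM-1 to COM-3 and 104 to 114 in COM-4 to COM-6, beside 97.1 to 114 in the first 4 NC samples and 18.9 and 20.6 in NC-6 and NC-5. It was 0.91 without NC-5 and NC-6 (adjusted p = 0.109) and 0.82 without COM-1 to COM-3 (adjusted p = 0.273), and neither passed. Between COM and COM+Met, 3 of 6 tested passed, 1 higher (5.77% of genes) and 2 lower (7.58%): Entpd1 rose by 0.56 (adjusted p = 0.0444), Nt5e fell by 0.996 (adjusted p = 0.010) and Cd38 by 0.79 (adjusted p = 0.0025). Entpd1 and Nt5e, which act in sequence, thus moved in opposite directions there, and the median of the 6 was -0.52. Without COM-1 to COM-3 the Entpd1 rise was 0.19 and did not pass (adjusted p = 0.189), whereas Nt5e still fell, by 0.51 (adjusted p = 0.0152). Of the 6 tested, 1 was higher and 5 lower without COM-4 to COM-6, and 1 higher and 3 lower without COM-1 to COM-3.

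Of 7 genes of nucleoside uptake and adenosine clearance tested in COM against NC, 3 rose (12.7% of all genes) and 2 fell (40.6%), with a median of 0.26. Adk, the kinase that returns adenosine to AMP, fell by 1.99 (adjusted p = 7.15e-07), from 11.0 to 18.4 FPKM in NC to 2.07 to 3.76 in COM. Slc29a1, the equilibrative nucleoside transporter ENT1, fell by 1.23 (adjusted p = 0.000136). Pnp (1.60), Pnp2 (2.35) and the concentrative transporter Slc28a2 (3.28) rose, and these have near-identical copies in the mouse genome, so that their separate values are uncertain. Slc28a2 was at 5.04 to 5.30 FPKM in COM-1 to COM-3 and 37.1 to 49.0 in COM-4 to COM-6. Against COM-1 to COM-3 alone, COM+Met was higher in Slc28a2 by 1.43 (adjusted p = 1.5e-07), and against COM-4 to COM-6 alone it differed by -1.44 (adjusted p = 0.000145). Ada, which deaminates adenosine, averaged 1.14 FPKM in NC and 0.564 in COM and was below the minimum for a test. Against COM, the COM+Met samples differed for 1 of 7, Pnp2 (-0.62, adjusted p = 0.0413), and Adk differed by 0.41 (adjusted p = 0.0527). Without COM-4 to COM-6, 1 of 7 was higher and 2 were lower, and without COM-1 to COM-3, 2 of 6 were higher and 3 lower.

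Among 6 release channels and transporters tested in COM against NC, 2 fell (40.6% of all genes) and 0 rose (12.7%), with a median of -0.16. Panx1, the pannexin channel through which macrophages release ATP, differed by 0.06 (adjusted p = 0.715), and Gja1 (connexin 43) fell by 1.10 (adjusted p = 0.00285). With Met, 1 of 5 fell (7.58% of all genes), 0 rose (5.77%) and Panx1 differed by -0.13 (adjusted p = 0.483). These counts depended on the COM trio: 0 rose and 3 fell without COM-4 to COM-6, and 2 rose and 0 fell without COM-1 to COM-3.

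Downstream of P2X7, 3 of 9 inflammasome genes rose in COM against NC (12.7% of all genes) and 3 fell (40.6%), with a median of -0.36. Il1b (3.55, adjusted p = 0.00255), Casp1 (1.43, adjusted p = 0.00162) and Nlrp3 (1.01, adjusted p = 0.0189) rose, and Il18 (-1.11) and Pycard (-1.06), the adaptor ASC, were called lower. The Casp1 rise was 0.71 without COM-4 to COM-6 (adjusted p = 5.85e-05), under 2-fold, and 2.15 without COM-1 to COM-3 (adjusted p = 1.05e-06). The Il1b rise was 2.19 without NC-5 and NC-6 (adjusted p = 0.000124). The Nlrp3 rise did not pass without COM-4 to COM-6 (0.99, adjusted p = 0.0929) or without COM-1 to COM-3 (1.02, adjusted p = 0.0723), and was 0.46 without NC-5 and NC-6 (adjusted p = 0.0175). P2rx7 itself fell in this comparison, as given above. With Met, 1 of 9 passed as lower (7.58% of all genes) and 0 as higher (5.77%): Il1b fell by 1.64 (adjusted p = 5.61e-06), from 455 to 609 FPKM to 158 to 184. These counts depended on the COM trio: 7 of 9 were lower and 1 higher without COM-4 to COM-6, and 1 was lower and 0 higher without COM-1 to COM-3. Casp1 differed by 1.13 without COM-4 to COM-6 (adjusted p = 6.18e-08) and by -0.30 without COM-1 to COM-3 (adjusted p = 0.0772).

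Of 9 G protein and adenylyl cyclase genes tested in COM against NC, 1 rose (12.7% of all genes) and 5 fell (40.6%), with a median of -0.37. The cyclases Adcy6 (1.84, adjusted p = 4.21e-05) and Adcy3 (-2.74, adjusted p = 7.01e-06) were called in opposite directions, and Gnas, the stimulatory G protein used by A2a and A2b, differed by -0.02. Between COM and COM+Met, 1 of 8 rose (5.77% of all genes) and 2 fell (7.58%), with a median of -0.28. Adcy6 fell by 1.13 (adjusted p = 0.00475), and its difference was -0.69 without COM-1 to COM-3 (adjusted p = 0.0176), under 2-fold. Without COM-4 to COM-6, 1 of the 8 rose and 5 fell, and without COM-1 to COM-3, 2 rose and 2 fell. Of 10 genes known to be induced by cAMP through CREB, 3 rose in COM (Crem 1.02, Pde4b 1.27 and Nr4a2 1.38) and 4 fell, of which Fos (-1.87), Rgs2 (-1.85) and Nr4a1 (-1.27) were called, beside 12.7% and 40.6% of all genes and with a list median of 0.21. The list thus moved in both directions in the comparison in which Adora2a rose. In COM+Met against COM, 7 of 9 fell and 0 rose, beside 7.58% and 5.77% of all genes, with Nr4a3 (-1.06, adjusted p = 0.0285) called and a list median of -0.65. Without COM-4 to COM-6, 8 of 9 fell, and without COM-1 to COM-3, 5 of 9 fell and 1 rose, where Nr4a3 differed by -0.40 (adjusted p = 0.087).

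Set against NC, the COM+Met samples had 2 ectonucleotidases higher and 4 lower of 7, 4 clearance genes higher and 2 lower of 6, 0 release genes higher and 4 lower of 6, 4 inflammasome genes higher and 5 lower of 9, 1 G protein or cyclase gene higher and 5 lower of 9, and 1 cAMP-induced gene higher and 6 lower of 9, at an adjusted p below 0.05, beside 19.3% higher and 55.9% lower of all genes. The inflammasome counts were 3 higher and 5 lower without NC-5 and NC-6, where Il1b was at 0.55 (adjusted p = 0.0525) instead of 1.91 (adjusted p = 0.0455). Nt5e (-1.77) and the cyclase Adcy7 (-1.53) were called lower here and in neither of the other comparisons, and whether the comparisons differ was not tested. Without COM-1 to COM-3 both were also called lower in COM against NC (-1.26 and -1.57), and without COM-4 to COM-6 both were in COM+Met against COM (-1.48 and -1.22). Casp1 was called higher at 1.84 and Cd38 at 3.53.

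**Figure D5:**
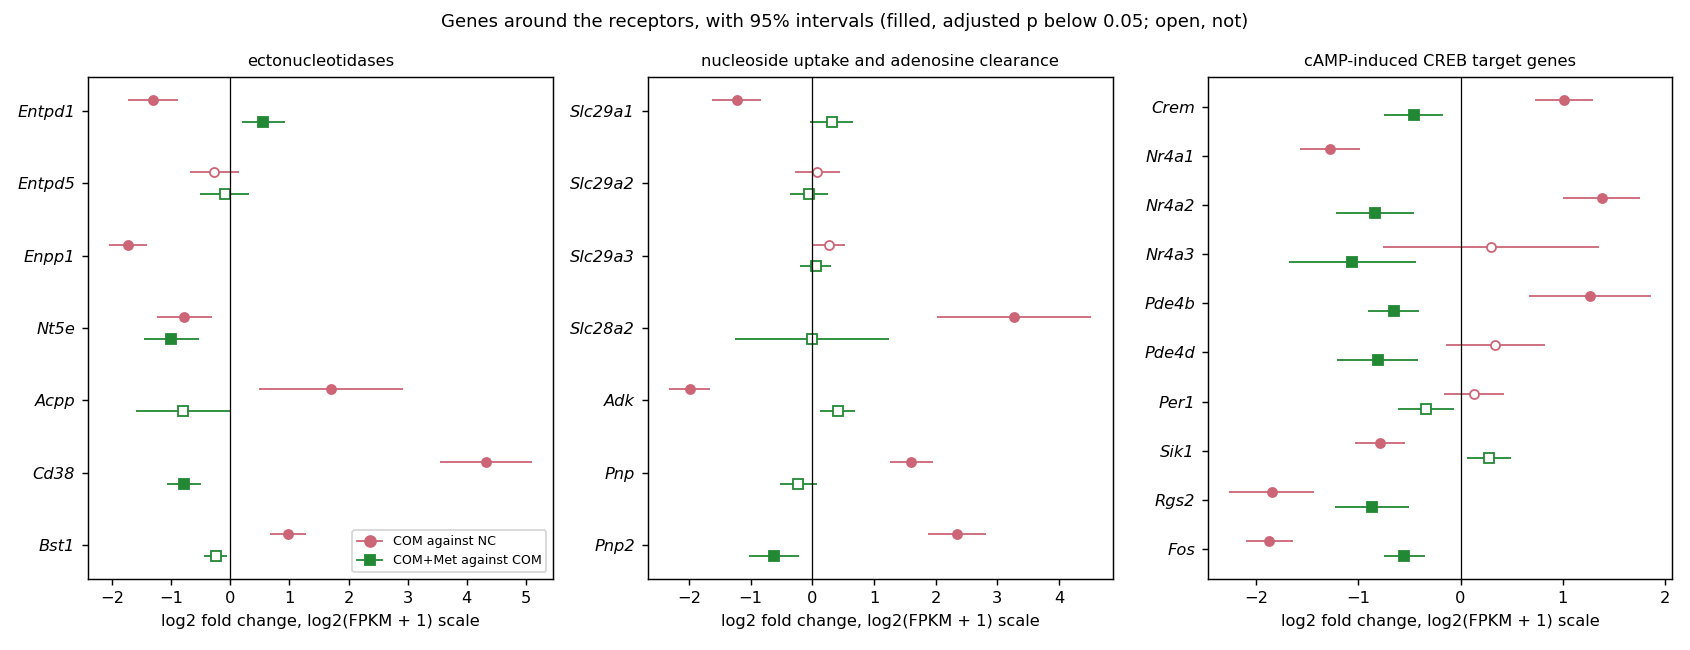
Log2 differences on the log2(FPKM + 1) scale (x axis) with 95% intervals for ectonucleotidases, genes of nucleoside uptake and adenosine clearance, and cAMP-induced genes, in COM against NC (circles) and COM+Met against COM (squares). Filled symbols have an adjusted p below 0.05, and a missing symbol means that the gene was below 1 FPKM on average. Over the first 2 panels together, Cd38 at 4.32 is the highest and Adk at -1.99 the lowest in COM against NC. In COM+Met against COM, 7 cAMP-induced genes are filled and left of 0.

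Over the 18 samples, the genes whose log2(FPKM + 1) was most like that of Adora2a, among 10324 with a mean of at least 1 FPKM, were Clmp (r = 0.991), Cd14 (0.990), Osbpl3 (0.989), St3gal1 (0.988) and Ifitm3 (0.985). Those most like P2ry13 were Cd300ld (0.977), B4galt6 (0.943), Ptprc (0.937), Cysltr1 (0.929) and Ankrd66 (0.923). All points share the 3 groups and the libraries that stand apart, so these are descriptions of the same samples. Cd14, a coreceptor for lipopolysaccharide that is also among the macrophage markers, averaged 64.7 FPKM in NC, 401 in COM and 378 in COM+Met. NC was lowest, as for Adora2a. Cd300ld, which followed P2ry13, averaged 26.4, 31.1 and 17.7 FPKM.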

How the data were processed

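RNA-seq of BMDMs in coculture was analysed in 18 samples, 6 in each group, as named by the sample labels. The authors deposited FPKM per gene and sample, and 0 of the 18 sample columns were left out. The submitters' processing notes list Bowtie 0.12.2 with 2 mouse builds, mm8 and mm9, and give no role for any of them; the sources used here do not give the program behind the FPKM values, its annotation or its filters. Read depth is unknown and low values have unknown precision. FPKM depends on the sum of each sample, so that a rise of abundant genes lowers the others.

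From these values log2(FPKM + 1) was computed. Each comparison was fitted on its own 12 samples by limma (version 3.58.1, trended eBayes; R 4.3.3), for genes averaging 1 FPKM or more, and p-values were adjusted by Benjamini-Hochberg across the whole fit. Calls needed an adjusted p under 0.05 and 2-fold or more. Single receptors were also compared by an exact two-sided permutation test of the mean log2 value. The test was checked on simulated data. Plots were drawn with matplotlib 3.10.9, and tables handled in pandas 2.3.3 and numpy 2.4.6 under Python 3.11.15. Of 22036 Ensembl identifiers, 22022 were found in GENCODE M21 (GRCm38); positions were taken from there and promoters from RefSeq (GRCm38.p6), which gave windows for 8 of the 10 receptors.

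The receptors, gene lists, markers, motifs and tests were chosen with earlier results of these data known. Named genes were all receptors, list genes called in a comparison, Entpd1, Nt5e, Panx1, Ada, Adk and Slc29a1 whatever their values, and the 5 genes most like the receptor with the largest difference in COM against NC and in COM+Met against COM. Gnas, Ppbp, Gp9, Cpa3, Mcpt8, Kit, Cdh1, Umod and Krt18 were named after their values were seen. The alternatives changed the pseudocount (0.1 or 5), the minimum (any value above 0, or 5 FPKM) or the scaling (TPM, size factors by median of ratios, or quantile normalisation), added a replicate block or limma's sample weights, fitted the 18 samples together, left each sample out in turn and, added after the data had been seen, the removal of the libraries that stood apart.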

Additional observations from a re-analysis of the deposited data

Results flagged for a closer look

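In 4 of the 30 combinations of receptor and group, a single sample lay far from the other 5 by Dixon's criterion at the 95% level, which chance alone meets in about 1 of 20. COM-6 was that sample for 3 of them: P2rx4 at 72.0 FPKM, where the nearest COM sample had 101, Adora2a at 17.3 FPKM beside 31.5, and P2ry14 at 129 FPKM beside 81.5. It was the lowest for the first 2 and the highest for the third. The other was Adora2b in COM+Met-1, at 18.6 FPKM beside 12.4. Without COM-6 the difference between COM and NC was 3.09 for Adora2a, 0.49 for P2rx4 and 0.87 for P2ry14 on the log2 scale, and all 3 kept their direction.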

How the results depend on the processing

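The 6 receptors that passed in COM+Met against NC, Adora2a and P2ry14 in COM against NC, and P2ry12 and P2ry13 in COM+Met against COM kept their direction and an adjusted p below 0.05 under every alternative in which they were tested. Depth is unknown and limits what can be said of the low genes P2ry12 and Adora3. Their means were 2.35 and 2.25 FPKM in NC, 1.68 and 1.15 in COM, and 0.468 and 0.523 in COM+Met.

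Directions reversed, none of them past the threshold in the values reported and only P2rx7 past it in the alternative, for P2ry12 in COM against NC (0.0090 with quantile normalisation, 0.11 without COM-4 to COM-6). They also reversed in COM+Met against COM for P2rx4 (-0.043 with sample weights, -0.062 without COM-4 to COM-6, -0.011 to 0.12 with a single sample left out) and P2rx7 (0.37 without COM-1 to COM-3, -0.17 to 0.039 with a single sample left out). In COM+Met against NC this held for P2ry6 (-0.010 with TPM, -0.012 to 0.12 with a single sample left out) and Adora2b (-0.038 with sample weights). The cause was not tested.

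In COM against NC, 2 receptors were called, but 1 with a pseudocount of 5, with sample weights, without NC-5 and NC-6, without these and COM-6, and without COM-4 to COM-6, and 1 to 2 with a single sample left out; with a pseudocount of 5, all genes called were 980 and list genes called 13. In COM+Met against COM, 1 receptor was called, but 2 with a pseudocount of 0.1, TPM, sample weights and without COM-4 to COM-6, 0 with a pseudocount of 5 and without COM-1 to COM-3, and 0 to 1 with a single sample left out. Receptors with an adjusted p below 0.05 there were 5 with TPM, 7 with sample weights and 6 without COM-4 to COM-6, instead of 3. All genes called were 230, but 370, 90, 416, 719 and 771 with pseudocounts of 0.1 and 5, TPM, sample weights and without COM-4 to COM-6, where list genes called were 7, 1, 8, 11 and 11, and 1 with a minimum of 5 FPKM or all 18 samples in the fit. In COM+Met against NC, 3 receptors were called, but 1 with a pseudocount of 5, a minimum of 5 FPKM, size factors and quantile normalisation, and 1 to 3 with a single sample left out; with a pseudocount of 5, all genes called were 1117 and list genes called 11. Of calls in COM against NC, 33.9% were higher, but 51.9% with size factors and 48.2% with quantile normalisation, and in COM+Met against NC 29.4%, 46.6% and 44.8%.

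No pairing of the samples by replicate number was visible. For each sample, the deviations of all genes averaging 1 FPKM or more from their group means were correlated with those of the other group. Same-numbered samples gave -0.222 to 0.0569 over the 3 comparisons, and 0 correlated best with its own number. With the replicate number as a block, 6 receptors instead of 5 passed in COM against NC, 2 instead of 3 in COM+Met against COM (P2ry14 at an adjusted p of 0.0773) and 6 as before in COM+Met against NC.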
